A study of Mus musculus with 4 samples.

Results

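Cytochrome P450 genes were described in adult mouse kidney by symbol. The genes are the rows of the deposited expression table whose symbol is Cyp followed by a family number, a subfamily letter and a gene number, without Cyp24a1 and Cyp27b1. There were 91 of them among 54232 genes, in 15 families, with 48 genes in family 2 and 17 in family 4. Another 29 symbols that begin with Cyp, such as Cyp51, Cyp4a12a and pseudogenes, fall outside this pattern and are given only where they bear on a member.

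P450 enzymes are heme-containing monooxygenases that insert oxygen into lipids, steroids, vitamins and foreign compounds. Those of the endoplasmic reticulum take electrons from P450 oxidoreductase and cytochrome b5, and those of mitochondria take them from ferredoxin. In the kidney many are made in the proximal tubule, where they epoxidize or hydroxylate arachidonic acid, oxidize fatty acids and metabolize drugs, and in mice several differ between males and females.

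Poly(A) RNA of whole kidneys was sequenced from Tshz3+/LacZ mice (HET), which have 1 LacZ allele of Tshz3, and from wild-type mice (WT), all adult and 60 days of age. Each genotype has 2 libraries, and each library is a pool made in equal proportion, with 3 kidneys per group named in the labels. The sources used here do not give the sex or strain of the mice, the structure of the LacZ allele, or whether 2 pools of the same genotype shared kidneys. The p-values thus reflect the spread between these pools alone, which may be technical. The series title names kidney dysfunction under loss of a Tshz3 copy, and the comparison here is of HET with WT kidneys. Values are given as TPM (reads per exon base, as a share of the library) multiplied by a scaling factor per library, called scaled TPM, always for replicate 1 and then replicate 2.

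Recovered reads ran from 62631750 to 70792042 per library. Tshz3 (ENSMUSG00000021217, chromosome 7, 36698118 to 36773553, mm10), a zinc-finger transcription factor gene, had no lower level under the label HET. It was at 0.833 and 0.760 scaled TPM there, against 0.653 and 0.723 scaled TPM in WT (a difference of 0.13 with an SE of 0.17 on the log2(scaled TPM + 0.5) scale, HET minus WT, called the log2 difference below; limma adjusted p = 0.790), so every direction below is that of the libraries as labelled. Exons that remain in the LacZ allele would count toward this level. On scaled TPM, transcripts of the sex chromosomes set HET replicate 1 and WT replicate 1 at opposite ends. The Y-linked Ddx3y was at 4.02 and 16.99 scaled TPM in the libraries labelled HET, against 21.1 and 16.2 scaled TPM in WT. Xist, which silences an X chromosome in females, was at 60.5 and 57.7 scaled TPM in the libraries labelled HET, against 18.1 and 39.7 scaled TPM in WT. In the deposited TPM, without scaling, HET replicate 2 was the highest library for both genes. It was at 19.2 TPM for Ddx3y, against 18.2 in WT replicate 1, and at 65.03 TPM for Xist, against 64.1 in HET replicate 1.

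P450 transcripts were concentrated in few genes. Of the 91 genes, 39 had a mean of at least 1 scaled TPM over the 4 libraries, 19 of at least 10, 10 of at least 100 and 2 of at least 1000. The 3 genes with the highest level, Cyp4b1, Cyp2j5 and Cyp2e1, held 72.8% of the summed P450 level, and the 10 highest held 93.4%. At the other end, 3 genes had no read in any library, among them Cyp7a1, the rate-limiting enzyme of bile acid synthesis in liver, with Cyp2c66 and Cyp2w1. A read was found in every library for 63 genes. Of all 91, 50 passed the filter on low values and 41 did not, with at most 19 reads in a library and a mean of at most 0.115 scaled TPM among those 41. The plot of the 20 highest genes shows each library.

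**Figure D1:**
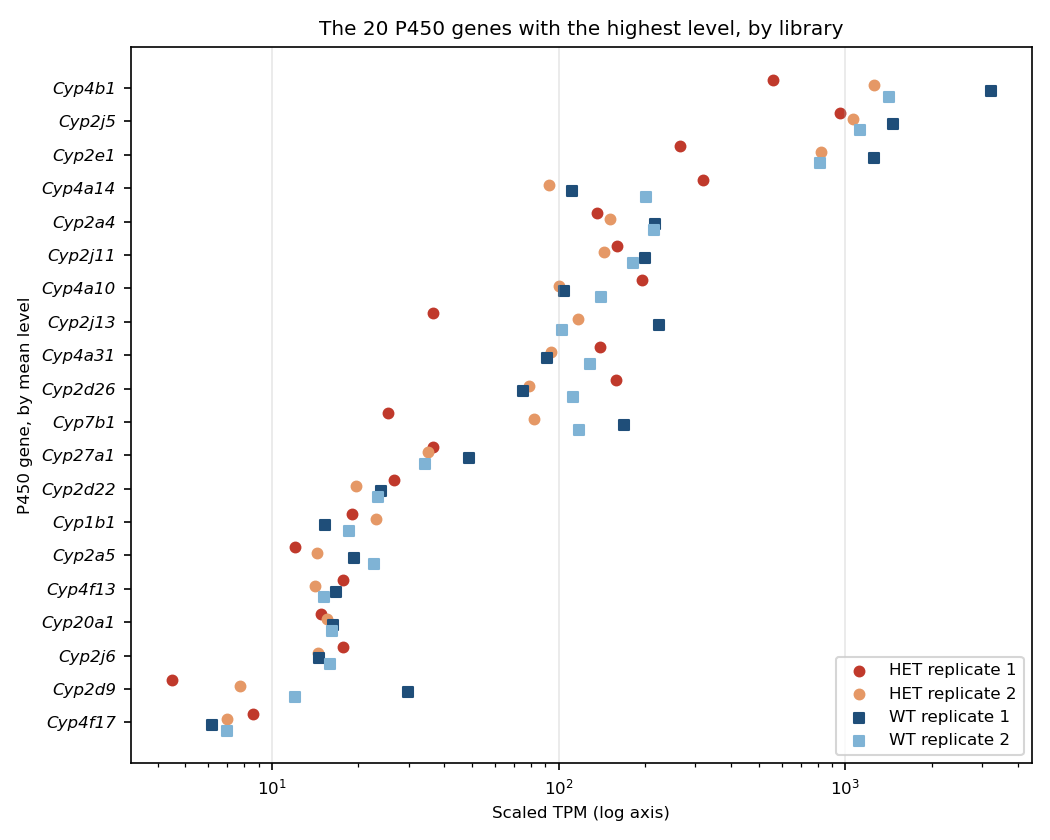
The 20 P450 genes with the highest mean level, from Cyp4b1 at the top, with scaled TPM on a log axis. Each gene has 1 point per library (HET as circles, WT as squares); the points of Cyp4b1 run from 558 in HET replicate 1 to 3219 in WT replicate 1, and those of Cyp2a4 fall into separate HET and WT groups.

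Summed over all 91 genes, the P450 level was 3175 and 4208 scaled TPM in the libraries labelled HET, against 7391 and 4779 scaled TPM in WT. WT replicate 1 stood highest, and both HET sums lay below both WT sums only with scaling. In the deposited TPM the sum was 3361 and 4743 in HET and 6350.1 and 4661 in WT, and HET replicate 2 lay above WT replicate 2. The means were 3691 ± 731 in HET and 6085 ± 1847 in WT (SD, n = 2 each), a log2 ratio of -0.72. It was -0.37 without WT replicate 1 and -1.002 without WT replicate 2. In whole tissue, fewer cells of a type and less RNA per cell cannot be told apart. Without Cyp4b1 the sum was 2616 and 2955 scaled TPM in HET, against 4172 and 3360.4 in WT. Cyp4b1, Cyp2e1, Cyp2j13, Cyp7b1 and Cyp2d9, 5 genes picked after their values were seen, summed to 890.2 and 2282 scaled TPM in HET and 4903 and 2467 in WT. The other 86 genes summed to 2284 and 1926 scaled TPM in HET and 2488 and 2312 in WT, so most of the difference in the total lay in those 5 genes. Without scaling, the 86 genes summed to 2419 and 2171 TPM in HET and 2137 and 2255 TPM in WT, and the groups overlapped.

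No P450 gene passed the test between the genotypes. In the limma fit over 22356 genes, 0 of 50 P450 genes had an adjusted p below 0.1, where 0.00895% of all genes passed, 0.00447% per direction. At an unadjusted p below 0.05, limma gave 5 P450 genes, Cyp2a4, Cyp2a5, Cyp2c69 and Cyp2d9 with lower values in the libraries labelled HET and Cyp2b9 with higher ones. Of all genes 7.26% met that limit, 3.46% lower and 3.81% higher. Both HET libraries lay below both WT libraries for 15 P450 genes (23.1% of all genes), and above both for 8 (21.8% of all genes). These counts depend on the scaling, and statements on overlap below are on scaled TPM unless said otherwise. Without it 8 P450 genes lay below both WT libraries (4.45% of all genes) and 17 above both (49.7% of all genes). All 8 genes that lay above remained so, and 8 of the 15 that lay below. The 7 that no longer did were Cyp4b1, Cyp2j5, Cyp20a1, Cyp11a1, Cyp2c38, Cyp4f39 and Cyp4f40. A log2 difference of -1 or lower was found for 6, namely Cyp2b10, Cyp2d9, Cyp2e1, Cyp2j13, Cyp4b1 and Cyp7b1, where 0.461% of all genes were that low. None reached 1 in the other direction, where 0.514% of all genes did. The median log2 difference was 0.0088 over the 50 P450 genes and 0.0067 over all genes, with 26 P450 genes above 0 (51.1% of all genes) and 24 below (48.9% of all genes). On unscaled TPM these counts were 32 and 18, and the medians 0.23 and 0.20. The median size of the log2 difference, without its sign, was 0.28 for P450 genes and 0.17 for all genes.

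**Figure D2:**
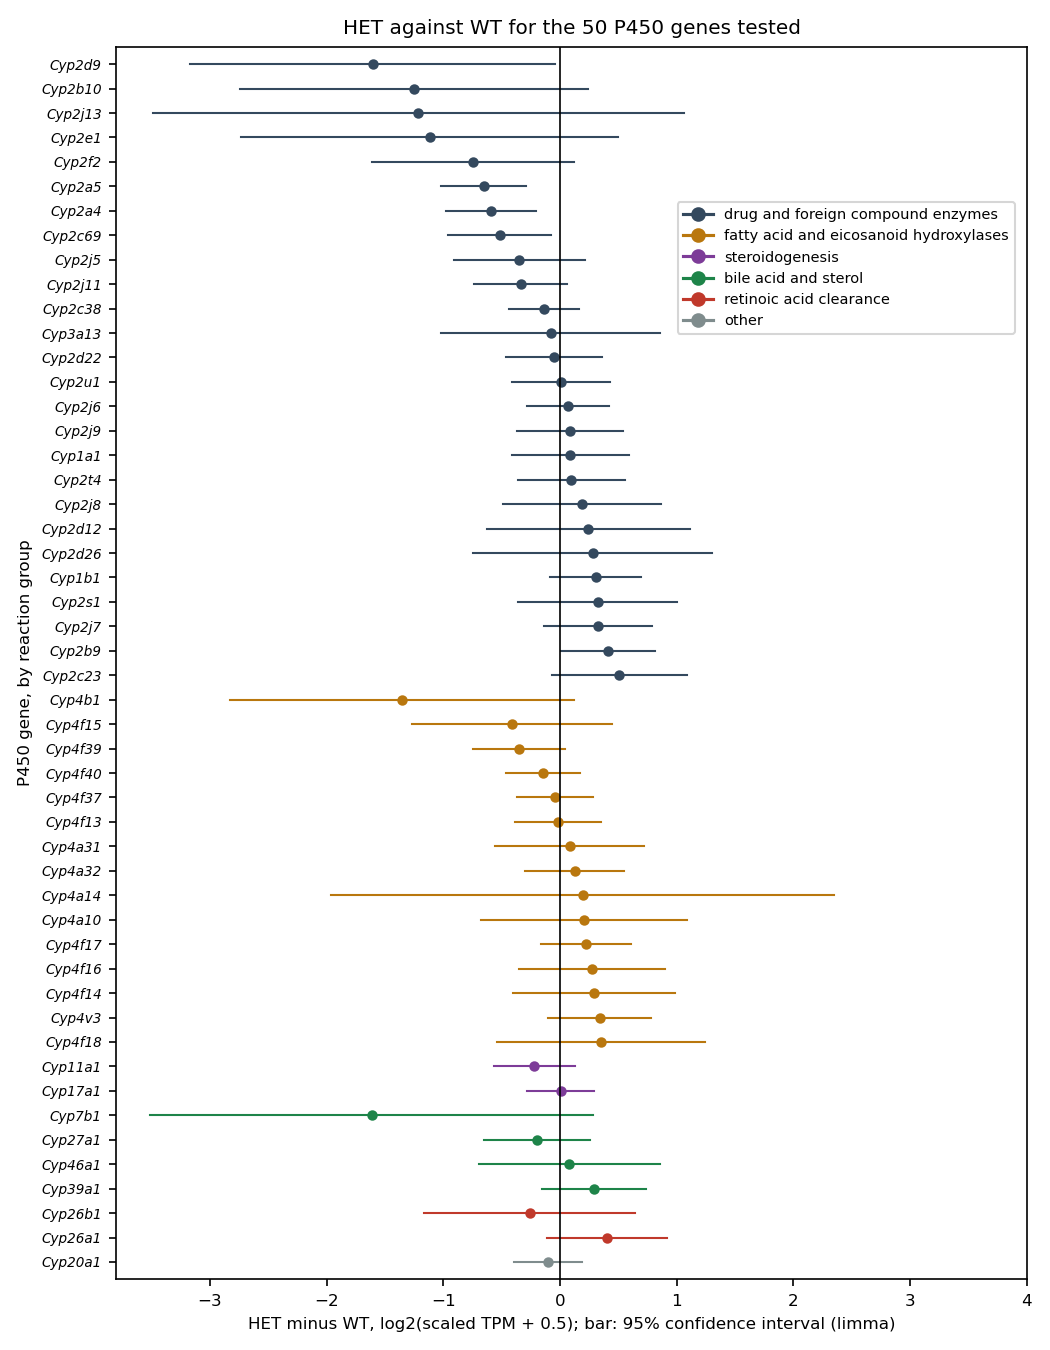
Log2 difference, HET minus WT on log2(scaled TPM + 0.5), for the 50 P450 genes that passed the filter, grouped by reaction, with 95% confidence intervals from limma. The 6 genes at -1 or lower have wide intervals, Cyp2j13 from -3.49 to 1.06, while those of Cyp2a4 and Cyp2a5 are narrow and lie below 0.

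Families 1 to 3, whose best known members oxidize drugs and other foreign compounds, had 58 genes, of which 26 passed the filter. They summed to 1829 and 2489 scaled TPM in the libraries labelled HET, against 3585 and 2671 scaled TPM in WT, and held 54.1% of the summed level. Of the 26, 13 had a log2 difference above 0 and 13 below 0.

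The Cyp2a genes had lower values in both libraries labelled HET and varied little within a genotype. Cyp2a4 (ENSMUSG00000074254, chromosome 7, 26307169 to 26315088), a testosterone hydroxylase, was at 137 and 151 scaled TPM in the libraries labelled HET, against 216 and 216 scaled TPM in WT. Its neighbour Cyp2a5 (ENSMUSG00000005547, chromosome 7, 26835305 to 26843548), a coumarin and nicotine hydroxylase, was at 12.04 and 14.3 scaled TPM in HET and 19.3 and 22.7 scaled TPM in WT. For both genes the HET and WT libraries did not overlap. The log2 difference was -0.59 with an SE of 0.16 for Cyp2a4 and a 95% interval of -0.98 to -0.20, and -0.65 with an SE of 0.15 for Cyp2a5 and an interval of -1.02 to -0.29 (limma adjusted p = 0.622 for both). Leaving out any 1 library kept Cyp2a4 at -0.66 to -0.52 and Cyp2a5 at -0.77 to -0.53. Without scaling the values were -0.34 and -0.41, still without overlap. In the authors' deposited table Cyp2a4 was the only one of the 91 P450 genes listed, with a log2 fold change of -0.53, a standard error of 0.14 and an adjusted p of 0.0420. With 97 entries, 55 up and 42 down, the authors' deposited table covers 0.179% of all rows. Cyp2a4 and Cyp2a5 are near-identical copies. Of the 50-base windows of Cyp2a4 transcripts, 36.1% occur in Cyp2a5 too, so the split of reads between both genes is uncertain. The 250 bases before and 50 after the transcription start (RefSeq, GRCm38.p6) were identical at 294 of 300 aligned bases, or 98%. The last 150 bases before each start are shown because the pair differed between the groups without overlap, with capitals on TATAAA, which begins 28 bases before the start of Cyp2a4 and 29 before that of Cyp2a5:
Cyp2a4, chr7:26307042-26307191, plus strand: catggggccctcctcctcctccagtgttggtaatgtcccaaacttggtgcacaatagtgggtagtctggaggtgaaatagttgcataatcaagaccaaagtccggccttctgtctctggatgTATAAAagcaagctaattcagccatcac
Cyp2a5, chr7:26835189-26835338, plus strand: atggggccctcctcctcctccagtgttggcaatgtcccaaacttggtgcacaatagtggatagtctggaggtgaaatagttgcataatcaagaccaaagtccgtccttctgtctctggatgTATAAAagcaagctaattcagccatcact

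Both Cyp2a genes stand in a cluster of 13 P450 genes on chromosome 7, from 25802475 to 27158668, which ends 9.54 Mb before Tshz3 on the same chromosome. Of the 7 that passed the filter, 4 lay below both WT libraries in both libraries labelled HET (23.1% of all genes) and 1 above (21.8% of all genes). The log2 difference was below 0 for those 4 and above 0 for the other 3, with a median of -0.59. Cyp2b10, a target of the drug-sensing receptor CAR, was at 0.503 and 1.11 scaled TPM in HET, against 4.55 and 1.31 scaled TPM in WT, where WT replicate 1 stood alone at the top. Its log2 difference of -1.25 was -0.51 without that library. Cyp2f2, which activates naphthalene in the airway, was at 1.26 and 0.381 scaled TPM in HET and 1.79 and 1.396 scaled TPM in WT. HET replicate 2 was far below the other 3 libraries, on 27 reads. Cyp2b9 lay above both WT libraries, at 0.407 and 0.3199 scaled TPM in HET and 0.0731 and 0.232 scaled TPM in WT, on 23 and 21 reads in HET and 4 and 14 in WT. Cyp2s1, an extrahepatic P450, was at 7.17 and 4.08 scaled TPM in HET and 3.71 and 4.83 scaled TPM in WT, and its groups overlapped. Those of Cyp2t4 overlapped too, at 1.63 and 1.37 scaled TPM in HET and 1.41 and 1.32 scaled TPM in WT.

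Cyp2e1 (ENSMUSG00000025479, chromosome 7, 140763739 to 140774987), which oxidizes ethanol, acetone and other small molecules, was at 266 and 822 scaled TPM in the libraries labelled HET, against 1261 and 816 scaled TPM in WT. HET replicate 1 stood far below the other 3 libraries, and HET replicate 2 lay within the WT range. HET and WT differed by -1.12 with an SE of 0.61 on the log2 scale, and the 95% interval was -2.73 to 0.50 (limma adjusted p = 0.623). It was -0.30 without HET replicate 1.

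In the Cyp2d subfamily the genes differed in direction. Cyp2d26 (ENSMUSG00000022445, chromosome 15, 82790101 to 82794294) was the highest of its 8 genes, at 159 and 78.9 scaled TPM in HET and 75.4 and 112 scaled TPM in WT. Cyp2d9 (ENSMUSG00000068086, chromosome 15, 82433437 to 82456845), a testosterone hydroxylase made mainly by males in mouse liver, was at 4.47 and 7.77 scaled TPM in HET and 29.9 and 12.02 scaled TPM in WT. For Cyp2d26 HET replicate 1 was highest and WT replicate 1 lowest, and for Cyp2d9 HET replicate 1 was lowest and WT replicate 1 highest. Cyp2d9 had a log2 difference of -1.60 with an SE of 0.55 (limma adjusted p = 0.622), and -0.96 without WT replicate 1. That of Cyp2d26 was 0.28 with an SE of 0.39, and -0.22 without HET replicate 1. Cyp2d22, at 26.7 and 19.6 scaled TPM in HET and 24.02 and 23.5 scaled TPM in WT, had a log2 difference of -0.051, which was 0.20 without scaling. Cyp2d12 was at 7.02 and 3.23 scaled TPM in HET and 4.29 and 3.69 in WT, with HET replicate 1 apart from the rest.

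The Cyp2j subfamily, which holds epoxygenases of arachidonic acid, made up 30.1% of the summed P450 level. Its 8 genes summed to 1176 and 1352 scaled TPM in HET, against 1919 and 1429 scaled TPM in WT. Cyp2j5 (ENSMUSG00000052520, chromosome 4, 96628773 to 96664154), an arachidonic acid epoxygenase abundant in mouse kidney, was at 955 and 1067 scaled TPM in HET and 1471 and 1120.1 scaled TPM in WT. Both HET values lay below both WT values with scaling. In the deposited TPM they were 1011 and 1203 in HET and 1264 and 1092 in WT, and the groups overlapped. This came to a log2 difference of -0.35 with an SE of 0.23 (limma adjusted p = 0.635). Cyp2j11 was at 160.0 and 143 scaled TPM in HET and 201 and 182 scaled TPM in WT, again without overlap, and had a log2 difference of -0.33 with an SE of 0.17. Cyp2j13 (ENSMUSG00000028571, chromosome 4, 96027534 to 96077546) was at 36.4 and 117 scaled TPM in HET and 224 and 103 scaled TPM in WT. Its lowest value was HET replicate 1 and its highest WT replicate 1, while both replicates 2 were close to each other. The log2 difference of -1.21 with an SE of 0.77 had the widest error of the 50 genes (limma adjusted p = 0.641), and was -0.38 without HET replicate 1 and -0.65 without WT replicate 1. Cyp2j7, at 1.47 and 1.75 scaled TPM in HET and 1.11 and 1.25 scaled TPM in WT, was the only Cyp2j gene whose HET values both exceeded both WT values with scaling, while Cyp2j6 and Cyp2j9 did so too without it. Cyp2j6, Cyp2j8 and Cyp2j9 overlapped between the groups, and Cyp2j6 had a log2 difference of 0.068.

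Most genes of the Cyp2c subfamily were near 0 in kidney, and 3 of 15 passed the filter. Cyp2c23 (ENSMUSG00000025197, chromosome 19, 44005022 to 44029208), an arachidonic acid epoxygenase of the kidney, was at 4.92 and 3.07 scaled TPM in HET, against 2.399 and 2.81 scaled TPM in WT. Both HET values were above both WT values, HET replicate 1 by the most, with a log2 difference of 0.51 with an SE of 0.24 (limma adjusted p = 0.622). It was 0.21 without HET replicate 1 and 0.81 without HET replicate 2. Cyp2c69 was at 0.431 and 0.501 scaled TPM in HET and 0.755 and 1.02 scaled TPM in WT, without overlap. Of its 50-base windows 54.3% occur in other genes, most of them in Cyp2c40, so its reads are uncertain.

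Family 1 was represented by Cyp1b1 (ENSMUSG00000024087, chromosome 17, 79706953 to 79715041), which oxidizes estrogens and aromatic hydrocarbons and is a target of the aryl hydrocarbon receptor. It was at 19.1 and 23.2 scaled TPM in HET, against 15.3 and 18.6 scaled TPM in WT, so both HET libraries were above both WT libraries, and the log2 difference was 0.31 with an SE of 0.16 (limma adjusted p = 0.622). Cyp1a1, another target of that receptor, was at 1.27 and 1.03 scaled TPM in HET and 1.21 and 0.903 scaled TPM in WT, and the groups overlapped. In family 3, which includes the main drug oxidases of liver, Cyp3a13 alone passed the filter. It was at 0.618 and 1.499 scaled TPM in HET and 1.55 and 0.715 scaled TPM in WT, so that HET replicate 2 resembled WT replicate 1 and HET replicate 1 resembled WT replicate 2. The 6 other Cyp3a genes, in 1 cluster on chromosome 5, summed to between 0.00673 and 0.132 scaled TPM per library.

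Family 4, the omega-hydroxylases of fatty acids and eicosanoids, had 17 genes, of which 15 passed the filter and 9 had a log2 difference above 0. The family summed to 1256 and 1578 scaled TPM in the libraries labelled HET, against 3562 and 1929.9 scaled TPM in WT. Cyp4b1 (ENSMUSG00000028713, chromosome 4, 115624725 to 115647723), which hydroxylates medium-chain fatty acids and activates some protoxicants, had the highest mean level of the P450 genes over the 4 libraries. In the libraries labelled HET alone the mean of Cyp2j5 was higher, at 1010.8 scaled TPM against 905.7 for Cyp4b1. Cyp4b1 was at 558 and 1253 scaled TPM in HET and 3219 and 1419 scaled TPM in WT, and HET replicate 2 lay close to WT replicate 2. The groups did not overlap on this scale, but did in the deposited TPM, at 591 and 1413 in HET and 2765 and 1384 in WT. Its log2 difference was -1.35 with an SE of 0.57, with a 95% interval of -2.83 to 0.12 (limma adjusted p = 0.622). It was -0.77 without HET replicate 1 and -0.76 without WT replicate 1.

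The 4 tested Cyp4a genes of the symbol pattern in the cluster with Cyp4b1 on chromosome 4 had other orders of libraries. Cyp4a14, an omega-hydroxylase induced through the fatty acid sensor PPARA, was at 318 and 92.7 scaled TPM in HET and 111 and 202 scaled TPM in WT. Cyp4a10, another PPARA target, was at 195 and 101 scaled TPM in HET and 105 and 141 scaled TPM in WT. Cyp4a31 was at 139.7 and 93.99 scaled TPM in HET and 90.9 and 129 scaled TPM in WT. In all 3 genes HET replicate 1 was highest and WT replicate 2 next, and the groups overlapped. Their log2 differences were 0.20 with an SE of 0.74, 0.21 with an SE of 0.35 and 0.082 with an SE of 0.26, each below 0 without HET replicate 1. For Cyp4a10 and Cyp4a31, 29.8% and 20.6% of the 50-base windows occur in other genes. The cluster of 7 genes spans 541 kb, and the plot along it shows Cyp4b1 lowest in HET replicate 1, where those 3 genes were highest. Cyp4a32, the gene of the cluster nearest to Cyp4b1, was at 2.72 and 2.85 scaled TPM in HET and 2.32 and 2.71 scaled TPM in WT. Both of its HET values were above both WT values, with HET replicate 2 highest, and the log2 difference was 0.13 with an SE of 0.18. Cyp4a12a and Cyp4a12b, on the same chromosome, were like Cyp4b1 lowest in HET replicate 1 and highest in WT replicate 1. Their symbols are outside the pattern, and the cluster was counted from genes of the pattern only. Whether they lie within its bounds was not examined, and the plot leaves them out. Not every Cyp4a gene of this chromosome thus differed from Cyp4b1 in order.

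**Figure D3:**
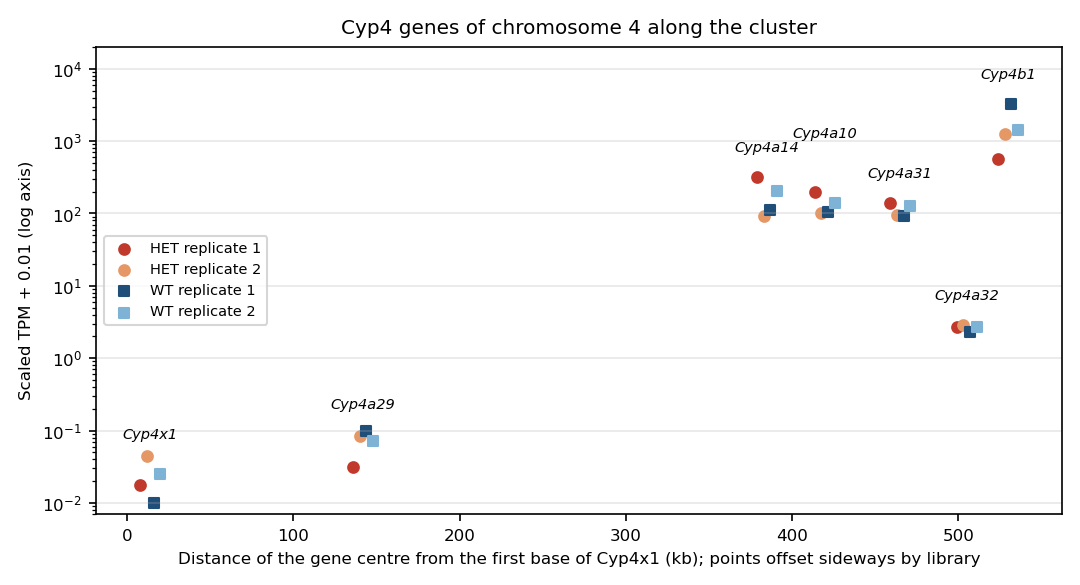
The Cyp4 genes of the symbol pattern in the chromosome 4 cluster, without Cyp4a12a and Cyp4a12b, by distance from the first base of Cyp4x1 (kb). Scaled TPM plus 0.01 is on a log axis, with 1 point per library (HET as circles, WT as squares). HET replicate 1 is the highest point of Cyp4a14 (318), Cyp4a10 (195) and Cyp4a31 and the lowest of Cyp4b1 (558).

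The Cyp4f genes, which inactivate leukotrienes and oxidize other fatty acids, differed little in sum. All 9 passed the filter and summed to 37.5 and 31.2 scaled TPM in HET and 31.3 and 32.9 scaled TPM in WT. Cyp4f13, the highest, was at 17.7 and 14.1 scaled TPM in HET and 16.8 and 15.2 scaled TPM in WT, with a log2 difference of -0.015 that was 0.23 without scaling. Cyp4f17 was higher in each HET library than in either WT library, at 8.57 and 7.01 scaled TPM in HET and 6.18 and 6.97 scaled TPM in WT. Cyp4f18, a leukotriene hydroxylase of mouse neutrophils, stood apart in HET replicate 2, at 0.107 and 0.724 scaled TPM in HET and 0.166 and 0.184 scaled TPM in WT. Cyp4v3, a fatty acid hydroxylase, was at 4.39 and 3.68 scaled TPM in HET and 2.78 and 3.38 scaled TPM in WT, without overlap, and the log2 difference was 0.34 with an SE of 0.18 (limma adjusted p = 0.622).

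Among the P450 genes of sterols and bile acids, Cyp7b1 had the lowest log2 difference of all 50. Cyp7b1 (ENSMUSG00000039519, chromosome 3, 18071950 to 18243338), which hydroxylates oxysterols and dehydroepiandrosterone, was at 25.5 and 81.8 scaled TPM in the libraries labelled HET, against 169.7 and 117 scaled TPM in WT. The groups did not overlap, and HET replicate 1 was far below HET replicate 2. Its log2 difference was -1.61 with an SE of 0.66 (limma adjusted p = 0.622). Without HET replicate 2 it was -2.45 and passed the test (limma adjusted p = 0.0330), the only such call of a P450 gene in any alternative run. That fit compares 1 HET library, the lowest of the 4, with the WT pair and assumes that it varies as they do. Without HET replicate 1 it was -0.78. Cyp27a1, the mitochondrial hydroxylase of the sterol side chain, was at 36.4 and 34.9 scaled TPM in HET and 48.7 and 34.3 scaled TPM in WT. WT replicate 1 stood above the other 3, and the log2 difference of -0.20 was 0.056 without scaling. Cyp39a1, an oxysterol hydroxylase, was at 6.73 and 5.29 scaled TPM in HET and 4.32 and 5.31 scaled TPM in WT. Cyp46a1, the cholesterol hydroxylase of neurons, was at 2.21 and 0.948 scaled TPM in HET and 1.29 and 1.46 scaled TPM in WT. The groups overlapped for both genes.

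Of the 3 genes that clear retinoic acid, Cyp26b1 was the highest. It was at 3.31 and 1.298 scaled TPM in HET and 2.55 and 2.72 scaled TPM in WT, and both WT values lay between the HET values. Cyp26a1 was at 0.636 and 0.258 scaled TPM in HET and 0.213 and 0.193 scaled TPM in WT, on 34 and 16 reads in HET and 11 and 11 in WT. Its groups did not overlap, with a log2 difference of 0.40 with an SE of 0.21 (limma adjusted p = 0.622). Cyp20a1, a P450 without a well-defined substrate, was close in all 4 libraries, at 14.9 and 15.5 scaled TPM in HET and 16.4 and 16.2 scaled TPM in WT. Its log2 difference of -0.100 was 0.15 without scaling.

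Genes of steroid hormone synthesis were close to 0, and WT replicate 2 held most of their reads. Cyp11a1, which starts steroid synthesis by cleaving the cholesterol side chain, had 10 and 4 reads in the HET libraries, against 10 and 32 in WT. Cyp11b1, which makes corticosterone, had 1 and 2 reads in HET and 1 and 19 in WT. Cyp21a1, the steroid hydroxylase shared by corticosterone and aldosterone synthesis, had 0 and 1 reads in HET and 3 and 15 in WT. In all 3 genes WT replicate 2 had the most reads, and aldosterone synthase Cyp11b2 had its only 3 reads there. Among adrenal cortex markers, Star was at 1.91 and 2.33 scaled TPM in HET and 1.98 and 2.100 scaled TPM in WT and Mc2r at 0.319 and 0.494 in HET and 0.176 and 0.119 in WT. Hsd3b1, which acts next after Cyp11a1, was at 2.45 and 3.24 scaled TPM in HET and 3.83 and 3.95 scaled TPM in WT, below both WT libraries with scaling and overlapping them without it. The 6 adrenal markers summed to 10.97 and 15.6 scaled TPM in HET and 12.1 and 13.7 in WT, and Nr5a1 had no read in HET replicate 1 and WT replicate 1. In that sum Mrap stood apart in HET replicate 2, at 2.02 and 5.80 scaled TPM in HET and 1.97 and 3.18 in WT. Akr1b7 was at 4.28 and 3.75 scaled TPM in HET and 4.17 and 4.32 in WT. The part of adrenal tissue in these reads was not tested. Cyp17a1 had 9 and 13 reads in HET and 10 and 10 in WT, and aromatase, Cyp19a1, had 1 read in all.

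Several P450 genes differed between the pools of a genotype. HET replicates 1 and 2 were 2-fold or more apart, on the log2(scaled TPM + 0.5) scale, for 9 of 50 P450 genes, where 2.85% of all genes were. In HET replicate 1, Cyp2e1, Cyp2j13, Cyp4b1, Cyp4f18 and Cyp7b1 were the lower ones (2.12% of all genes) and Cyp26b1, Cyp2d12, Cyp2d26 and Cyp4a14 the higher ones (0.734% of all genes). WT replicates 1 and 2 were that far apart for 4 genes, Cyp2b10, Cyp2d9, Cyp2j13 and Cyp4b1, against 1.56% of all genes. All 4 were higher in WT replicate 1, where 0.662% of all genes were, and 0 were lower, where 0.899% were. The median step between pools was 0.32 for P450 genes and 0.18 for all genes in HET, and 0.24 and 0.18 in WT. A step between pools was larger than the difference between genotypes for 37 of the 50 P450 genes and for 70.6% of all genes. The steps ran in opposite directions in the 2 genotypes for 31 P450 genes, where 45.3% of all genes did so. Across the 50 P450 genes, Pearson's r between the HET step and the WT step was -0.65, and across all 22356 genes it was 0.12. These describe genes of the same 4 libraries, which are not independent replicates. HET replicate 1 was lowest and WT replicate 1 highest for 11 P450 genes (12.3% of all genes), and the reverse held for 9 (13.1% of all genes).

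**Figure D4:**
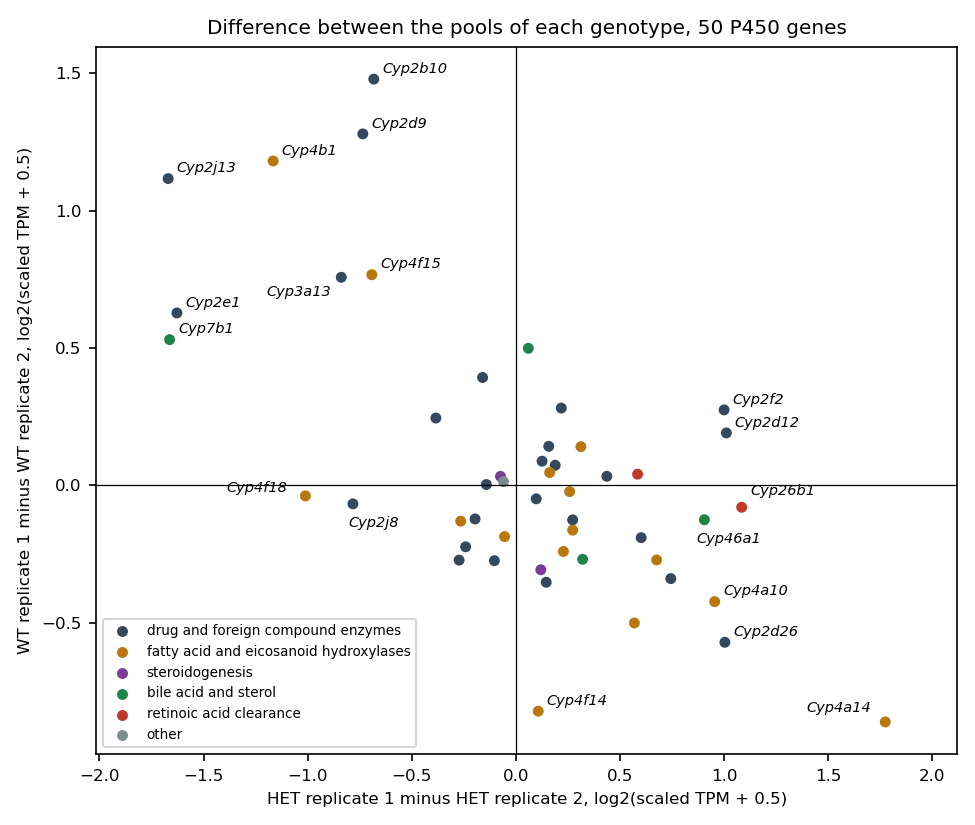
Difference between the pools of each genotype for 50 P450 genes: HET replicate 1 minus 2 on the x axis and WT replicate 1 minus 2 on the y axis, both in log2(scaled TPM + 0.5). Colours are the reaction groups assigned by family number. Cyp4b1, Cyp2j13 and Cyp7b1 lie at the upper left and Cyp4a14 and Cyp2d26 at the lower right, with r = -0.65 across genes.

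Several of these genes are known to differ by sex in mouse kidney. Of 8 P450 genes known to be higher in males, all had a log2 difference below 0, with a median of -1.23, and 0 were called, where 48.9% of all genes were below 0. Of the 8, 5 lay below both WT libraries (23.1% of all genes), and 3 did without scaling (4.45% of all genes). Beside Cyp7b1, Cyp2j13, Cyp2j5, Cyp4b1, Cyp2e1 and Cyp2d9 they include Cyp4a12a and Cyp4a12b, whose symbols are outside the pattern. The 8 genes were listed with earlier results of these data known, so their counts are not independent of these data. Among them are Cyp4b1, Cyp2e1, Cyp2j13, Cyp7b1 and Cyp2d9, which were summed above after their values were seen. Cyp2a4 was not on the list, and whether it differs by sex in these kidneys was not tested. It was lowest in HET replicate 1, at 137 scaled TPM, and stood at 216 scaled TPM in both WT libraries. Cyp4a12a, a male-enriched arachidonic acid hydroxylase, was at 68.03 and 252 scaled TPM in HET, against 462 and 209.8 scaled TPM in WT. Cyp4a12b was at 3.05 and 4.05 scaled TPM in HET and 11.4 and 5.33 scaled TPM in WT. Both were lowest in HET replicate 1 and highest in WT replicate 1. Cyp4a14, known to be higher in females, was highest in HET replicate 1. Its lowest library was HET replicate 2 on scaled TPM, and WT replicate 1 without scaling.

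Genes outside the family that are known to differ by sex, also listed with earlier results of these data known, were compared in the same way. Of 7 other genes known to be higher in males, 7 had a log2 difference below 0 (median -1.23) and 0 were called. Slco1a1, an organic anion transporter, was at 72.4 and 253 scaled TPM in HET and 416 and 249.7 scaled TPM in WT. Gusb, a lysosomal glucuronidase, was at 35.4 and 49.8 scaled TPM in HET and 121 and 81.4 scaled TPM in WT. Both were lowest in HET replicate 1 and highest in WT replicate 1. Of 3 other genes known to be higher in females, 3 were above 0 (median 0.88), among them the amino acid transporter Slc7a12 at 312 and 154 scaled TPM in HET and 71.9 and 197 scaled TPM in WT. Of the Y-linked genes, Eif2s3y was at 3.27 and 15.4 scaled TPM in HET and 22.95 and 12.98 scaled TPM in WT, Uty at 0.9797 and 4.99 in HET and 5.34 and 4.16 in WT, and Kdm5d at 0.357 and 1.89 in HET and 2.17 and 1.22 in WT. All were lowest in HET replicate 1 and highest in WT replicate 1 on scaled TPM. Without scaling HET replicate 1 stayed lowest, but WT replicate 1 stayed highest for Eif2s3y only. Ddx3y, Uty and Kdm5d were then highest in HET replicate 2, at 19.2, 5.63 and 2.13 TPM. In WT replicate 1 they were at 18.2, 4.59 and 1.87 TPM. With the Y-linked level as a covariate, the log2 difference was -0.65 for Cyp4b1, -0.27 for Cyp2e1, -0.28 for Cyp2j13, -0.76 for Cyp7b1, -1.09 for Cyp2d9 and -0.52 for Cyp2a4. With the Xist level instead it was -0.090, -0.38, 0.016, -0.98, -0.27 and -0.58 for the same genes in that order. The makeup of the pools by sex was not tested against a record of the animals, and with 4 libraries a covariate leaves little to estimate the spread.

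**Figure D5:**
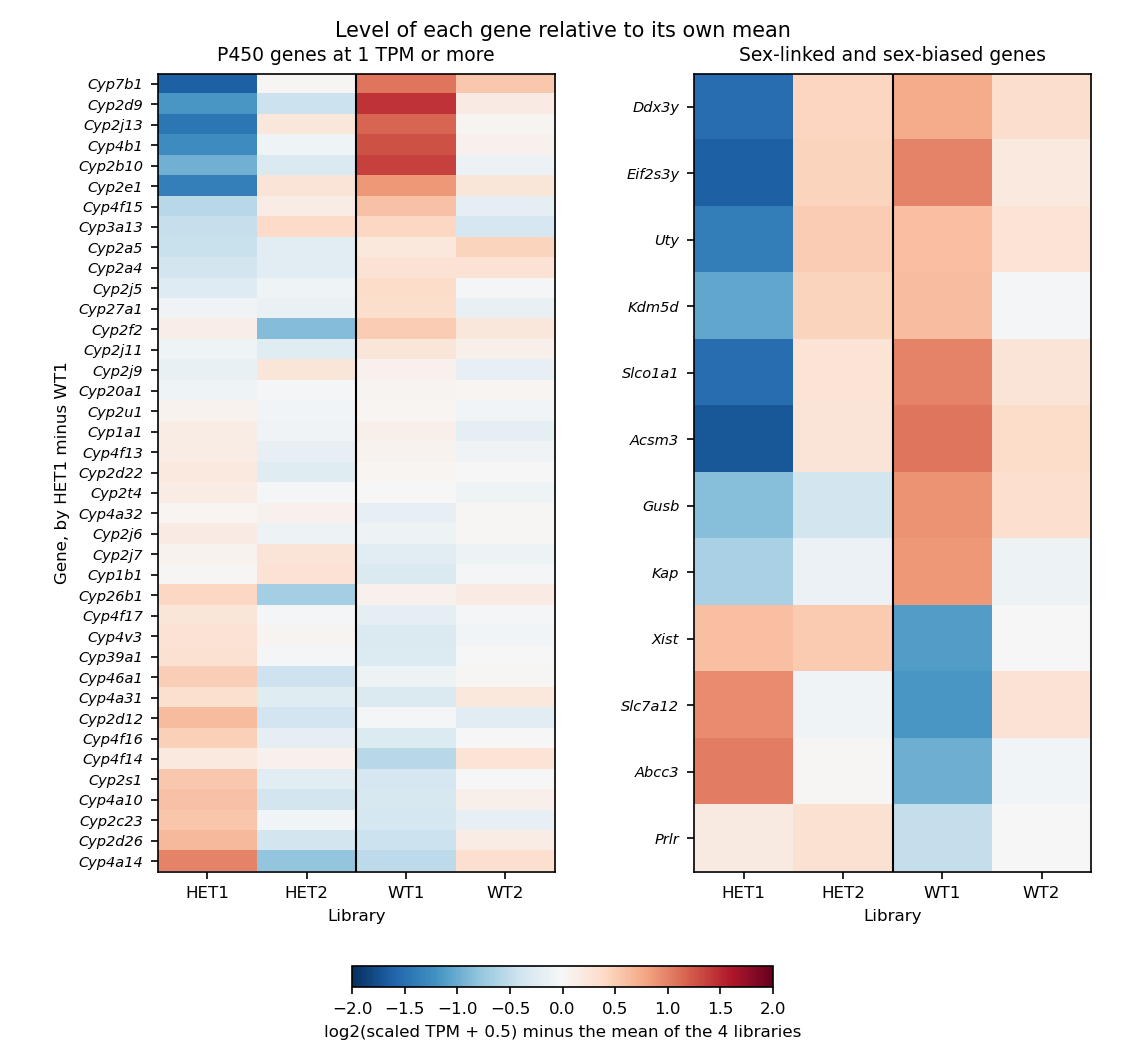
Level of each gene in each library as log2(scaled TPM + 0.5) minus the mean of the 4 libraries, for 39 P450 genes of at least 1 scaled TPM (left) and for sex-linked and sex-biased genes (right), with HET libraries left of WT. Cyp7b1, Cyp2d9, Cyp2j13 and Cyp4b1 are lowest in HET replicate 1 and highest in WT replicate 1, as Ddx3y, Eif2s3y and Slco1a1 are.

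Promoter sequence was available for 71 of the 91 genes (RefSeq, GRCm38.p6, 250 bases before to 50 after the start). Where a gene had several windows, the one nearest to its deposited start was taken for P450 genes and the first listed for other genes. TATAAA, searched on both strands, was in 42.3% of the P450 windows and in 14.2% of those of 27025 genes. Between 45 and 15 bases before the start it began in 17 P450 windows (23.9%), against 3.21% of all genes. CAAAGTCCA, a strong site of the liver and kidney receptor HNF4A, was in 9 P450 windows (12.7%) and in 0.477% of all, and the 9 genes are Cyp2c40, Cyp2c65, Cyp2c67, Cyp2c68, Cyp2c69, Cyp2c70, Cyp3a11, Cyp3a16 and Cyp8b1. Cyp2c69 alone among these passed the filter. Several of the 9 are related copies, and 46.5% of the 50-base windows of Cyp2c69 transcripts occur in Cyp2c40, so their promoter matches may not be independent. TGTTCT, a core of androgen and glucocorticoid receptor sites, was in 28.2% of the P450 windows and 19% of all, AGGTCA, a core of other nuclear receptor sites, in 26.8% and 16%, GTTAAT, a core of HNF1 sites, in 9.86% and 7.2%, and TTCNNNGAA, the STAT motif, in 7.04% and 8.47%. TGTTCT was in the windows of Cyp4b1 and Cyp2d26 and not in those of Cyp2e1, Cyp2d9 and Cyp2j13. The 150 bases before the start are shown for 4 genes that were lowest in HET replicate 1 and highest in WT replicate 1, and for Cyp2d26, which had the reverse order. Capitals mark TATAAA, or TTTATA where it reads on the other strand, and Cyp4b1 and Cyp2j13 have neither in this stretch. The RefSeq start of Cyp2d9, at 82452377, lies inside the gene as the deposited table bounds it:
Cyp4b1, chr4:115647722-115647871, minus strand: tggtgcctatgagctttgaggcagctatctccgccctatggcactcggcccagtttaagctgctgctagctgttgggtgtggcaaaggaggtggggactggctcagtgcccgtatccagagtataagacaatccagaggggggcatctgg
Cyp2e1, chr7:140763669-140763818, plus strand: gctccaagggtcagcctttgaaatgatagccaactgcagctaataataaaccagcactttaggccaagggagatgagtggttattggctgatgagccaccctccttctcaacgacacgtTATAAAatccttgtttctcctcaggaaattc
Cyp2j13, chr4:96077548-96077697, minus strand: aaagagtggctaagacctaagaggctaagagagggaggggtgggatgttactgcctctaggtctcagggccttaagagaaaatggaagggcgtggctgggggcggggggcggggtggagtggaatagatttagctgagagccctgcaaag
Cyp2d9, chr15:82452227-82452376, plus strand: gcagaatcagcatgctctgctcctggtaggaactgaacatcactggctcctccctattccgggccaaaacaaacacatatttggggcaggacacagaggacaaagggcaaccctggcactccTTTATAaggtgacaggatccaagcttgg
Cyp2d26, chr15:82794246-82794395, minus strand: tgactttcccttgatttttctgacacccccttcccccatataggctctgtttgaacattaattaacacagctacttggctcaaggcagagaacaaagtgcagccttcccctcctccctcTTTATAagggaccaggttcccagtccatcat

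The electron donors of P450 enzymes had lower values in HET libraries with scaling and not without it, and none was called. All 8 that were tested had a log2 difference below 0, with a median of -0.25 beside 0.0067 over all genes, and 5 lay below both WT libraries (23.1% of all genes). Without scaling 4 were above 0 and 4 below, with a median of 0.0010 beside 0.20 over all genes. Then 2 lay below both WT libraries (4.45% of all genes) and 3 above both (49.7% of all genes). Cytochrome b5, Cyb5a, was at 379.7 and 539 scaled TPM in the libraries labelled HET, against 956 and 655 scaled TPM in WT. P450 oxidoreductase, Por, was at 210.2 and 199 scaled TPM in HET and 244 and 222 scaled TPM in WT. The mitochondrial ferredoxin Fdx1 was at 38.7 and 39.9 scaled TPM in HET and 54.9 and 48.6 scaled TPM in WT, and its relative Fdx1l at 24.7 and 23.4 in HET and 30.1 and 29.5 in WT. None of these overlapped between the groups on scaled TPM. Without scaling Cyb5a and Fdx1 still lay below both WT libraries and Fdx1l overlapped. Por turned, at 223 and 225 deposited TPM in HET and 209 and 216 in WT. The log2 difference was -0.81 with an SE of 0.28 for Cyb5a and -0.18 with an SE of 0.17 for Por (limma adjusted p = 0.622 and 0.693).

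Heme synthesis genes, which supply the cofactor, had 6 of 8 below 0 and 2 above, with a median of -0.27 and 0 called, and without scaling 4 below and 4 above, with a median of -0.017. Alas1, the rate-limiting enzyme, was above 0, at 55.5 and 57.4 scaled TPM in HET and 46.5 and 50.1 scaled TPM in WT. Cpox was at 24.3 and 37.1 scaled TPM in HET and 51.9 and 40.8 scaled TPM in WT, and Fech, which inserts iron, at 84.2 and 89.2 in HET and 121 and 105 in WT. Neither overlapped between the groups on scaled TPM, and Cpox did without scaling.

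Of 26 tested nuclear receptors and other regulators of P450 genes, 9 had a log2 difference above 0 and 17 below, with a median of -0.039 and 0 called, and without scaling 19 were above and 7 below, with a median of 0.15. Hnf4a was at 313 and 342 scaled TPM in HET and 447 and 369 scaled TPM in WT, and the bile acid receptor gene Nr1h4 at 82.9 and 131 in HET and 154 and 132 in WT. The growth hormone receptor gene Ghr was at 191 and 226 scaled TPM in HET and 239 and 234 in WT. In all 3 both HET libraries lay below both WT libraries with scaling and overlapped them without it. Prlr, the prolactin receptor gene, lay above in both cases, at 15.7 and 17.3 scaled TPM in HET and 9.84 and 13.9 scaled TPM in WT. It is also on the list of other genes known to be higher in females.

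Of 11 tested enzymes that act beside P450s on arachidonic acid and its epoxides, 8 were above 0 and 3 below, with a median of 0.082 and 0 called. The soluble epoxide hydrolase gene Ephx2 was at 153 and 225 scaled TPM in HET, against 399 and 243 scaled TPM in WT, lowest in HET replicate 1 and highest in WT replicate 1. The microsomal one, Ephx1, was at 72.2 and 35.4 scaled TPM in HET and 34.8 and 42.3 scaled TPM in WT, with HET replicate 1 apart at the top.

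Markers of the proximal tubule, where most renal P450s are made, differed in direction. Of 17 markers, 12 had a log2 difference below 0 and 5 above, with a median of -0.24 and 0 called, and without scaling 8 were below and 9 above, with a median of 0.011. Their sum was 43582 and 57087 scaled TPM in HET and 104058 and 59088 scaled TPM in WT, most of it Kap, an androgen-induced gene at 30768 and 44555 in HET and 87435 and 44594 in WT. Without scaling the sums were 46146 and 64349.6 TPM in HET and 89404 and 57622 TPM in WT, which overlap. Kap and Slc7a13 are also on the list of other genes known to be higher in males, so these lists are not separate. Slc34a1, the phosphate transporter of the early proximal tubule, was at 2005 and 2003 scaled TPM in HET and 2692 and 2093 in WT, and Miox at 3677 and 3373 in HET and 4405 and 4052 in WT. The endocytic receptor genes Lrp2 and Cubn lay above both WT libraries, Lrp2 at 358 and 359 scaled TPM in HET and 260.1 and 303 in WT and Cubn at 88.6 and 92.2 in HET and 67.2 and 81.2 in WT. On scaled TPM they were the only 2 of the 17 markers to do so (21.8% of all genes), and 10 lay below both WT libraries (23.1% of all genes). Without scaling 3 markers lay below both (4.45% of all genes) and 3 above both (49.7% of all genes). The part of tubule content in the P450 values was not tested. The 5 markers of thick ascending limb and distal tubule had a median of 0.23 and sums of 3567 and 2583 scaled TPM in HET and 2394 and 2712 in WT. Medians were 0.020 for 5 collecting duct markers, 0.22 for 3 podocyte markers, 0.033 for 4 endothelial markers and 0.17 for 5 urothelial markers, with 0 called. The 6 macrophage markers had a median of 0.73, with 5 whose HET values both exceeded the WT values (21.8% of all genes), and sums of 199.999 and 198 scaled TPM in HET and 119.6 and 134 in WT. The 5 adrenal markers tested had a median of 0.042, the 6 liver markers -0.060 (0.079 without scaling) and the 6 fat markers 0.40. Liver markers summed to 20.5 and 15.3 scaled TPM in HET and 16.3 and 20.98 in WT, low beside the P450 genes of the kidney.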

How the data were processed

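The authors deposited TPM for each gene and library, from alignments marked unique to mm10 and summed over exons, per the file headers. The authors' deposited table of their own comparison gives the mean normalized count (a signal averaged over libraries), the log2 fold change and its error, a test statistic (a score), and p-values. DESeq, DESeq2 and edgeR appear without versions in the submitters' processing notes. No source used here gives the aligner, counter, kit or strand setting, so overlapping genes on opposite strands cannot be told apart.

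Multiplying TPM by exon length gave whole reads for 100% of values, within 0.001 reads of a multiple of the smallest value. Reads served for depth, the filter, scaling and limma-voom only. TPM were scaled by trimmed mean of M values factors of the reads. A gene was tested when 2 libraries had 10 or more reads (at median depth) and all libraries together 15. The test was limma 3.58.1 (R 4.3.3, variance trend, robust) on log2(scaled TPM + 0.5), with calls at a Benjamini-Hochberg value below 0.1 over 22356 genes. This scale understates changes of low genes. The fit was also run on simulated reads that had the same setting of spread for every gene. That run does not measure how the fit performs on these pools, and no result here rests on it. Replicates were no copies of each other (chi-square over its degrees of freedom 73.2 in HET and 70.6 in WT). Windows of 50 bases were compared between GENCODE M21 transcripts, and motifs were counted in RefSeq promoter windows of GRCm38.p6.

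The P450 genes and all lists were chosen with earlier results of these data known. Named genes are the 20 highest P450 genes, those with an unadjusted p below 0.05, the 6 largest differences per direction, the highest of each family and, from lists of electron donors, heme synthesis, regulators, arachidonic acid enzymes, sex-biased genes and cell markers, those of small p or high level. Alternatives were other scalings, pseudocounts and filters, limma-voom, no robust moderation, each library left out, the replicate block, and Y-linked or Xist level as a covariate.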

Additional observations from a re-analysis of the deposited data

How the results depend on the processing

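Over all genes the count of calls, 2, was 0 without the filter on low genes, 1 without robust moderation, 0 with limma-voom (1771 genes at an unadjusted p below 0.05), 32 with the Y-linked level as covariate, 0 with the Xist level as covariate and 0 to 65 when 1 library was left out. For P450 genes the count of 0 became 1 without HET replicate 2 (Cyp7b1, where the lone HET library is assumed to vary like the WT pair) and was 0 in the other alternatives run, with 1 to 16 P450 genes at an unadjusted p below 0.05. The replicate numbers are shared between the genotypes, but with only 2 pairs and no label that ties them they name samples only; with the number as a replicate block the counts were 0 for all genes and 0 for P450 genes, and deviations of HET and WT replicate 1 correlated at 0.12. Of 504 values for 34 named genes under alternatives, 458 kept direction and side of the threshold, 45 reversed and 1 became a call. Without scaling, which shifts the median of all genes to 0.20 (log2), reversed values were 0.15 (Cyp20a1), 0.056 (Cyp27a1), 0.20 (Cyp2d22), 0.10 (Cyp3a13) and 0.23 (Cyp4f13). With the Y-linked level they were -0.26 (Cyp2d26), -0.076 (Cyp2j6), 0.41 (Cyp3a13), -0.36 (Cyp46a1), -0.30 (Cyp4a10), -0.75 (Cyp4a14), -0.25 (Cyp4a31). With the Xist level they were 0.30 (Cyp27a1), 0.28 (Cyp2b10), -0.36 (Cyp2d26), 0.016 (Cyp2j13), 0.059 (Cyp2j5), -0.075 (Cyp2j6), -0.0022 (Cyp39a1), 0.74 (Cyp3a13), -0.10 (Cyp46a1), -0.28 (Cyp4a10), -0.78 (Cyp4a14), -0.46 (Cyp4a31), 0.11 (Cyp4f13). Leaving out 1 library at a time gave ranges that cross 0 for Cyp17a1 (-0.029 to 0.045), Cyp26b1 (-0.80 to 0.28), Cyp27a1 (-0.45 to 0.054), Cyp2d22 (-0.27 to 0.17), Cyp2d26 (-0.22 to 0.78), Cyp2j6 (-0.068 to 0.20), Cyp3a13 (-0.50 to 0.34), Cyp46a1 (-0.37 to 0.53), Cyp4a10 (-0.27 to 0.68), Cyp4a14 (-0.69 to 1.08), Cyp4a31 (-0.20 to 0.37), Cyp4f13 (-0.17 to 0.14), Cyp4f18 (-0.15 to 0.86). The cause of these changes was not tested. With 2 pools per genotype the errors are wide, genes under about 1 TPM rest on few reads, and an exact permutation test of 1 gene cannot give a two-sided p below 0.333.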

Other observations

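Of the 29 symbols beginning with Cyp that fall outside the pattern, Cyp51, the lanosterol demethylase of cholesterol synthesis, had a level among the higher P450 genes, at 208 and 169 scaled TPM in the libraries labelled HET and 229 and 196 scaled TPM in WT. Its groups overlapped, and HET minus WT was -0.18 with an SE of 0.19 on the log2 scale (limma adjusted p = 0.733). The pseudogene Cyp4b1-ps1 was at 3.06 and 5.44 scaled TPM in the libraries labelled HET, against 19.6 and 9.17 scaled TPM in WT, the same order of libraries as Cyp4b1. Cyp4b1-ps2 was at 1.196 and 2.66 scaled TPM in HET and 7.62 and 3.55 scaled TPM in WT. Cyp4b1 shares 8.26% of its 50-base windows with other genes, so reads of the pseudogenes and of Cyp4b1 are not fully separate.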
